A study of Mus musculus with 5 samples.

Results

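Prostaglandin synthesis and signaling genes were followed in RNA of the mouse dentate gyrus (DG), the hippocampal region that holds the granule cells. The 10 genes were chosen by symbol (Ptgs1, Ptgs2, Ptgds, Hpgds, Ptges, Ptges2, Ptges3, Hpgd, Ptger3 and Ptger4), and all 10 were found among the 23420 gene symbols of the series. The series held 5 libraries, 1 per group, from wild-type CD1 mice labelled as 4 months old. The paper's methods state that the mice were male and give a younger age. LD mice were housed alone for 4 weeks with a disk that could not turn, CE mice (complex environment) were housed together with a locked disk and tunnels, and RUN mice were housed alone with a running disk. The RUN, LD and CE libraries each held pooled RNA of 8 mice. L-RUN and H-RUN held the RNA of the 4 runners with the shortest and the 4 with the longest distances, so the same 8 mice gave RUN, L-RUN and H-RUN. CD1 is an outbred strain. CE differed from LD in company as well as in tunnels. The whole DG was dissected, so fewer cells of a type and less RNA per cell cannot be told apart.

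Prostaglandins are lipid signals made from arachidonic acid that phospholipases and diacylglycerol lipases free from membranes. Cyclooxygenases turn it into prostaglandin H2, terminal synthases make the separate prostaglandins from it, G protein-coupled receptors read them, and a dehydrogenase inactivates them. In brain, prostaglandin D2 is known for its part in sleep, prostaglandin E2 for fever and inflammation, and cyclooxygenase 2 for its synthesis in excitatory neurons after activity.

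Of the 10 genes, 2 differed between groups by more than the cut-off used here, and they did so in different libraries. Such a difference was found in 5.12% of all genes with a mean regularized log (rlog) value of at least 5. The 10 genes were gathered with the values of Ptgds and Ptgs2 already known. Ptgds was highest in L-RUN, 3.92-fold above LD, and was lowest in H-RUN. Ptgs2 was highest in H-RUN, 1.32-fold above LD. The other 7 genes with a mean rlog value of at least 5 stayed within 0.139 of LD in all 4 groups on the log2 scale, and Ptger3 fell below that mean. Differences are rlog values of a group less those of LD. The cut-off for a call was a size of 0.3, taken from the methods of the study. No p-value is given, since each group is 1 library and no difference has a replicate library. The paper also measured Bdnf, Cd74, Prss22 and Cwc22 by qPCR in the other DG of these mice, none of them a member. The only error that could be measured comes from RUN, which should match its 2 parts, L-RUN and H-RUN, mixed in equal amounts. Scaled to a difference between 2 libraries, this technical SD was 0.022 to 0.047 for the members, by level of expression, and it holds no difference between mice.

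**Figure D1:**
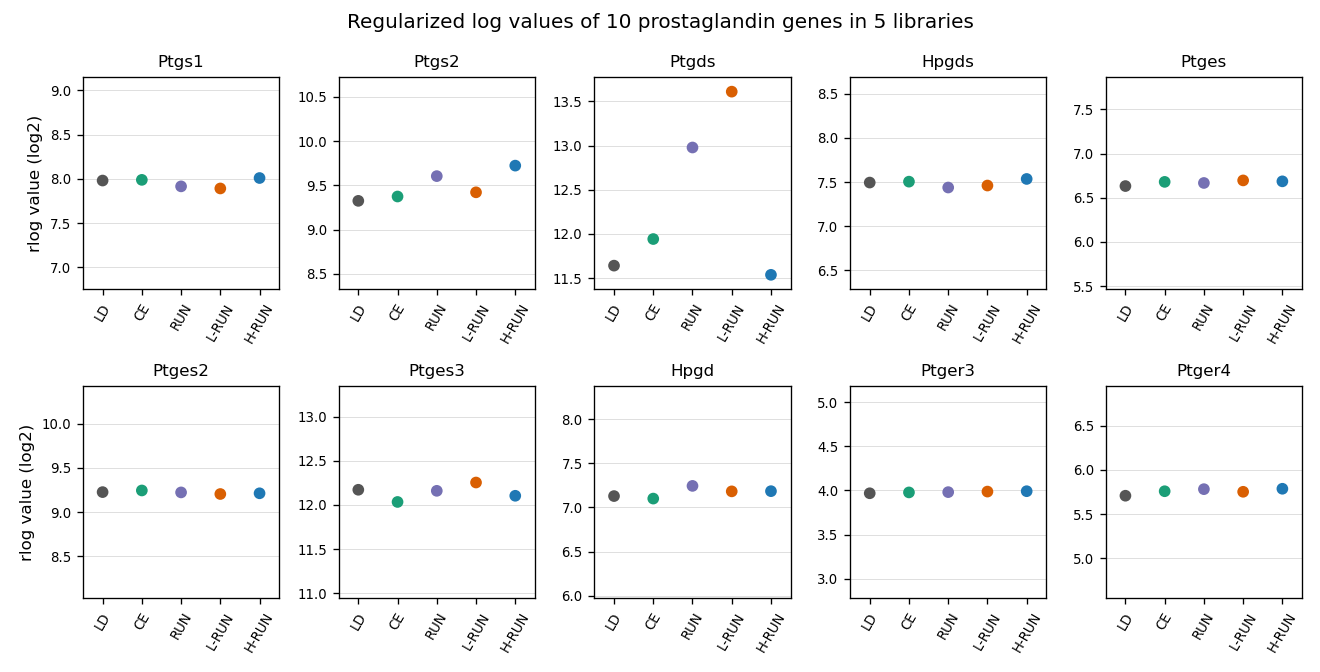
Each panel plots the rlog value (log2 scale, vertical axis) of 1 gene in the 5 libraries, 1 point per library, and all panels span the same range of values. Ptgds runs from 11.54 in H-RUN to 13.61 in L-RUN, Ptgs2 from 9.32 in LD to 9.72 in H-RUN, and the points of the other 8 genes lie almost level.

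Per kilobase of transcript, Ptgds and Ptges3 were the most abundant members. The rlog value less log2 of the length in kilobases ranged over the 5 libraries from 11.69 to 13.76 for Ptgds and from 11.03 to 11.25 for Ptges3. Ptgs2 followed at 7.17 to 7.57, then Ptges2 at 6.89 to 6.93. Ptgs1 (6.37 to 6.49) and Hpgd (6.35 to 6.49) overlapped, so their order was not set. Hpgds (5.64 to 5.74), Ptges (4.77 to 4.83), Ptger4 (3.98 to 4.06) and Ptger3 (2.31 to 2.34) came last. Lengths are those of the longest transcript with a RefSeq match in GENCODE, from 901 bases for Ptgds to 4978 bases for Ptges2, and a shorter main transcript would raise a gene's level on this scale.

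The 2 genes on which the comparisons turn lie on different chromosomes. Ptgds is on the minus strand of chromosome 2 (GRCm38, 25466709 to 25470046) and Ptgs2 on the plus strand of chromosome 1 (150100031 to 150108227). The 250 bases before the RefSeq start of each gene (GRCm38.p6, 5′ to 3′) are printed because the RNA of these 2 genes differed, with E-box letters (CANNTG, which read the same on both strands) in capitals. They lie at chr2:25469750-25469999 (minus strand) and chr1:150099781-150100030 (plus strand).
Ptgds: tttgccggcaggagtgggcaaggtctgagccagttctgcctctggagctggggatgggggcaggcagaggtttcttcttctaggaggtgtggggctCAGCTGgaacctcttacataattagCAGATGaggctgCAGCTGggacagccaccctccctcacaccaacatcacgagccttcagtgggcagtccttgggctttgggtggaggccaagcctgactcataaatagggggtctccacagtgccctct
Ptgs2: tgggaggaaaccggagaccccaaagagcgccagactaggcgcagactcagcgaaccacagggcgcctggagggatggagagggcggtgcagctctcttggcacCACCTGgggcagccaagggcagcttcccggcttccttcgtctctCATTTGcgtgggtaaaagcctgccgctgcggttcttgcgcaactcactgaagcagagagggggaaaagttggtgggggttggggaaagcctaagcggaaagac

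The Ptgds window held 3 of these letters, whose first bases lie 154, 129 and 117 bases before the start, and the Ptgs2 window held 2, at 147 and 103 bases. Of 32851 mouse promoter windows of this length, 66.2% held at least 1. Neither window held TATAAA (12.4% of all windows) or CGTCA, the core of the cAMP response element (17.8%), on either strand. Only the 250 bases before the annotated start were searched, so letters further upstream or past that start would be missed. These are matches of letters only, and the RNA values say nothing of what binds there.

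Ptgs1 and Ptgs2, the cyclooxygenases, were compared first because they stand at the entry of the pathway. Ptgs2 is the inducible enzyme and also an activity-induced gene of excitatory neurons. Its rlog value was 9.32 in LD, 9.37 in CE, 9.42 in L-RUN, 9.60 in RUN and 9.72 in H-RUN. H-RUN and RUN thus stood above the other 3 libraries. The differences from LD were 0.05 in CE, 0.10 in L-RUN, 0.28 in RUN and 0.40 in H-RUN (technical SD 0.042). Only H-RUN passed the cut-off. In that library 0.288% of the 13550 genes with a mean of at least 5, here called expressed genes, differed more from LD. RUN lay 0.02 from the value that its 2 parts would give when mixed, which is less than the technical SD. Between H-RUN and L-RUN the difference was 0.302, a 1.23-fold higher value in H-RUN that only just reached the cut-off. It was 0.299 when differences were centred on their median and 0.276 when their trend with transcript length was removed. Ptgs1, the enzyme that many cells make at a steady level, was 7.98 in LD, 7.99 in CE, 7.91 in RUN, 8.01 in H-RUN and 7.89 in L-RUN. These 5 values spanned 0.118, and none differed from LD by 0.3. An exon of Gm43621 overlaps Ptgs1 on the other strand.

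Ptgds, the lipocalin-type prostaglandin D synthase, is made by leptomeningeal cells, choroid plexus and oligodendrocytes and is a major protein of cerebrospinal fluid. Its rlog value was 11.64 in LD, 11.94 in CE, 12.98 in RUN, 11.54 in H-RUN and 13.61 in L-RUN. L-RUN and RUN, which holds the RNA of the L-RUN mice, stood far above the other 3 libraries. The difference from LD was 1.97 in L-RUN and 1.34 in RUN (3.92-fold and 2.53-fold, technical SD 0.022), the largest of all expressed genes in both comparisons. In CE it was 0.301, only just past the cut-off, and removing the trend with transcript length brought it to 0.26. In H-RUN it was -0.10. H-RUN was 4.21-fold lower than L-RUN (difference -2.07), again the largest difference of any expressed gene between these libraries, although both are pools of running mice. LD and H-RUN, the neighbours at the low end, differed by 4.65 times the technical SD, and 19.7% of expressed genes differed more between them.

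The RUN value of Ptgds can be set against its parts. RNA of the L-RUN and H-RUN pools in equal parts would have had an rlog value of 12.92, and RUN measured 12.98. The residual of 0.060 is above the technical SD of genes at this level and small beside the difference of 2.07 between the parts. The high RUN value of Ptgds is therefore not a separate observation from that of L-RUN.

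Hpgds, the haematopoietic prostaglandin D synthase, which microglia make in brain, makes the same product as Ptgds. It was 7.494 in LD, 7.504 in CE, 7.438 in RUN, 7.535 in H-RUN and 7.460 in L-RUN, a range of 0.097. Its highest library was H-RUN, the lowest for Ptgds, and its differences from LD were at most 1.28 times the technical SD.

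Among the prostaglandin E2 synthases, Ptges3 varied most. Ptges3, also known as p23, is a cochaperone of Hsp90 as well as a cytosolic synthase. It was 12.17 in LD, 12.03 in CE, 12.16 in RUN, 12.10 in H-RUN and 12.25 in L-RUN. CE was the low library and L-RUN the high one. The difference of CE from LD was -0.14, which is 4.92 times the technical SD and under the cut-off, and 13.1% of expressed genes differed more in that comparison. L-RUN and H-RUN lay on opposite sides of LD (0.08 and -0.07), but against the average of LD and CE they were at 0.15 and 0.00074. Ptges, the inducible microsomal synthase, stayed between 6.63 (LD) and 6.70 (L-RUN). Ptges2, the membrane-associated synthase, stayed between 9.20 (L-RUN) and 9.24 (CE) and had the smallest range of the expressed members, 0.040.

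Hpgd, the dehydrogenase that inactivates prostaglandins, was 7.13 in LD, 7.10 in CE, 7.24 in RUN, 7.18 in H-RUN and 7.18 in L-RUN. RUN stood above both of the pools made from its own mice, by 0.061 against their mixture. The difference from LD was 0.12 in RUN, 0.06 in H-RUN and 0.05 in L-RUN, against a technical SD of 0.044. Ptger4, the prostaglandin E2 receptor that raises cAMP, was 5.71 in LD, 5.76 in CE, 5.78 in RUN, 5.79 in H-RUN and 5.75 in L-RUN. All 4 groups lay above LD by 0.04 to 0.08, or 1.21 to 2.15 times the technical SD. Exons of Ptger4 overlap those of Ttc33 (mean rlog 10.41) on the other strand, and the counting is not stated to use strand, so reads of the pair may be mixed. Ptger3, the receptor that lowers cAMP, was between 3.97 (LD) and 3.99 (H-RUN). The rlog shrinks genes with few reads towards their mean, so a change of Ptger3 or Ptger4 would be understated in these values.

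**Figure D2:**
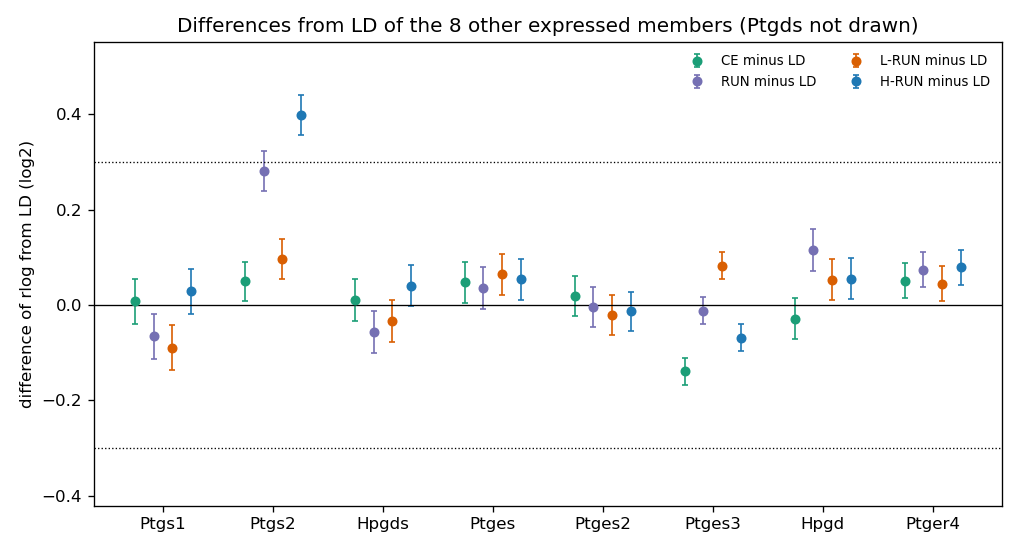
Differences of the rlog value from LD (log2 scale, vertical axis) for the 8 expressed members other than Ptgds, with 1 point for each of the other 4 libraries and bars of 1 technical SD in either direction. Dotted lines mark 0.3 in either direction, and the 0.40 of Ptgs2 in H-RUN is the only point past them.

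Counted over the 9 expressed members, 1 passed the cut-off in CE (Ptgds), where 0.598% of all expressed genes did. For RUN the count was 1 of 9 (Ptgds), against 1.31% of expressed genes. For L-RUN it was 1 of 9 (Ptgds), against 3.13%. For H-RUN it was 1 of 9 (Ptgs2), against 0.827%. Between H-RUN and L-RUN 2 of 9 passed, Ptgs2 higher and Ptgds lower in H-RUN, against 1.54%. The members were gathered with the values of Ptgds and Ptgs2 already known, so these counts describe the list and carry no weight beyond the genes named. The median of the 9 differences from LD lay between 0.02 (CE) and 0.05 (L-RUN), while that of all expressed genes lay between -0.004 and -0.001. All comparisons with LD share the LD library.

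The wider pathway was described with a list of 53 symbols, of which 52 are in the files and 35 were expressed. In CE, 1 was higher (Mif) and 1 lower (Cd74). In H-RUN, 1 was higher (Daglb) and 1 lower (Cd74). Neither RUN nor L-RUN had any past the cut-off (0 of 35 each), and between the H-RUN and L-RUN pools it was also 0 of 35. Over all expressed genes the shares past the cut-off were 0.598% in CE, 1.31% in RUN, 3.13% in L-RUN, 0.827% in H-RUN and 1.54% between the pools, so counts of 0 in a list of this size are near the background. Mif and Cd74 entered the list because the study names them from these libraries. Without them, 0 of 33 passed in CE and 1 of 33 in H-RUN. Over the 35 genes the median difference from LD lay between 0.01 (RUN) and 0.04 (H-RUN).

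Of the genes that release arachidonic acid, 14 of 16 were expressed. Daglb, a diacylglycerol lipase, was 10.07 in LD, 10.20 in CE, 10.23 in L-RUN, 10.28 in RUN and 10.40 in H-RUN, and its difference of 0.34 in H-RUN was 0.27 against the mean of LD and CE. Daglb and Ptgs2 had the same order of libraries. Daglb was named because it passed the cut-off in H-RUN, as Ptgs2 did, and RUN shares the mice of both runner pools. The shared order is therefore only a description. Dagla, the other diacylglycerol lipase, differed from LD by 0.08 in H-RUN, and the cytosolic phospholipase gene Pla2g4a by 0.08. The median difference of these 14 genes in H-RUN was 0.08, against -0.004 over all expressed genes, and 12 of them lay above LD. In CE, RUN and L-RUN, 10, 11 and 9 of the 14 lay above LD, and all these comparisons share the LD library.

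Of the other prostanoid synthases, 4 of 8 were expressed and 0 passed the cut-off. The largest difference was that of Fam213b, a prostaglandin F synthase, at 0.25 in L-RUN. Of the other prostanoid receptors and their partners, 5 of the 9 in the files were expressed and 0 passed. Ptgfrn, whose protein binds the prostaglandin F receptor, had the largest difference, -0.20 in H-RUN. Ptger1, a further prostaglandin E2 receptor, was at 6.11 to 6.23 per kilobase, above Ptger3 and Ptger4, and lay 0.08 to 0.12 above LD in the 4 groups. Ptger2, also an E2 receptor, was at 3.16 to 3.22 per kilobase. The receptors Ptgdr, Ptgfr, Ptgir and Tbxa2r had mean rlog values below 5. Ptgdr, the receptor for the prostaglandin D2 that Ptgds makes, had a value of 3.84 in LD and 3.90 in L-RUN.

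All 6 genes of prostanoid transport and inactivation were expressed and 0 passed, the largest difference being -0.15 for the exporter gene Abcc4 in CE. In the lipoxygenase branch, which makes leukotrienes from the same arachidonic acid, 4 of 11 were expressed and 0 passed. Lta4h, the gene of leukotriene A4 hydrolase, had the largest difference there, 0.16 in RUN. Mif, a cytokine gene, was 11.40 in LD and 11.71 in CE, a difference of 0.31 that fell to 0.27 when the trend with transcript length was removed. Cd74, which codes for a receptor of this cytokine, was 6.15 in LD, 5.72 in CE, 5.93 in RUN, 5.75 in H-RUN and 6.05 in L-RUN. CE and H-RUN were the low libraries, at -0.43 and -0.40 from LD, and H-RUN was at -0.19 against the average of LD and CE, which is under the cut-off. By qPCR of the other DG of the same mice, the paper reports lower Cd74 than LD in CE and all running groups.

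**Figure D3:**
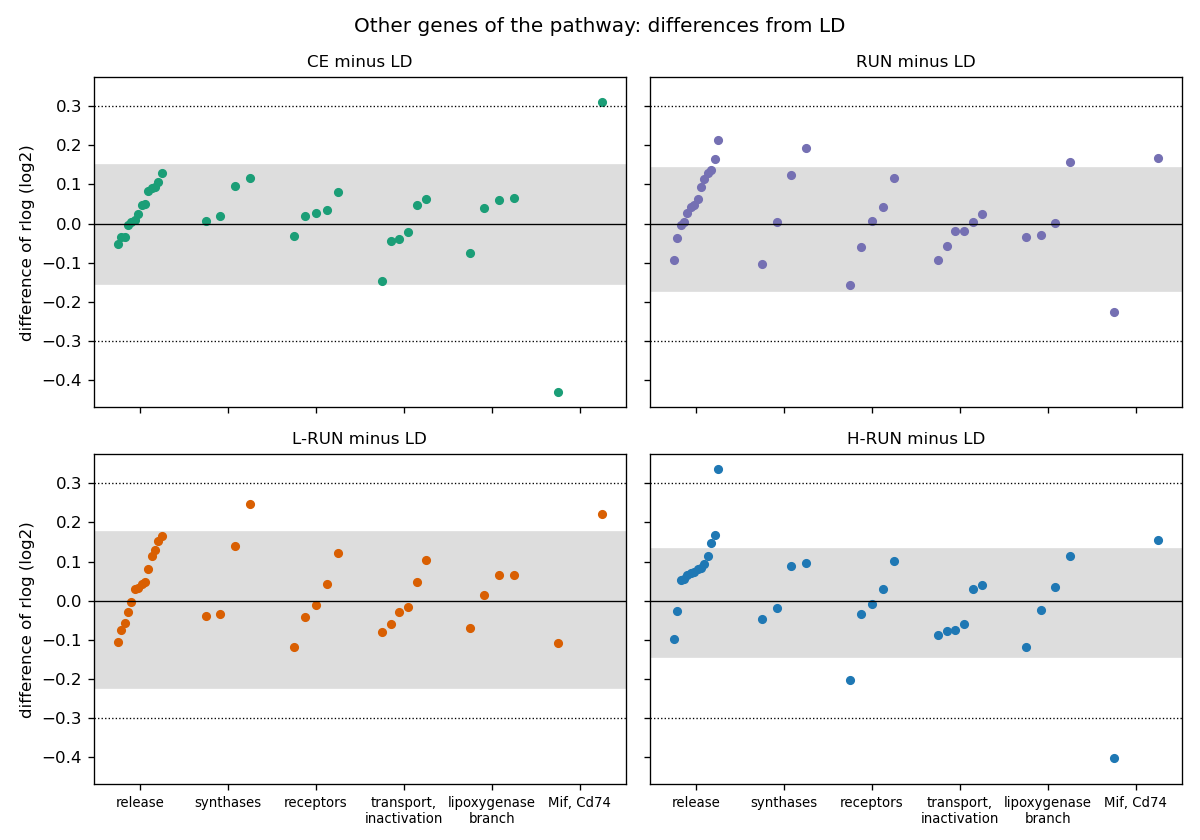
Each panel plots, for 1 comparison with LD, the difference of the rlog value (log2 scale, vertical axis) of the 35 expressed genes of the wider pathway, 1 point per gene, by list (horizontal axis, genes sorted within a list). The grey band spans the 5th to 95th percentile of all expressed genes and dotted lines mark 0.3 in either direction. Past those lines lie Mif (0.31) and Cd74 (-0.43) in CE, and Daglb (0.34) and Cd74 (-0.40) in H-RUN.

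Markers of other cell types were read beside the members. The most abundant granule cell markers, Fam163b, Stxbp6 and Calb1, had mean rlog values of 13.55, 13.21 and 12.99. All 8 markers of CA1 and CA3 pyramidal cells were expressed as well, so these values are no check on the purity of the dissection. Markers of leptomeningeal fibroblasts, a cell type that makes Ptgds, lay above LD in L-RUN, as Ptgds did. Of their 19 genes, 16 were expressed and 0 were at 0 in all libraries. In L-RUN all 16 lay above LD and 11 passed the cut-off, against 3.13% of all expressed genes. The median difference of the 16 was 0.39, against -0.002 over all expressed genes. Igf2, a growth factor gene, differed most, at 9.65 in LD and 10.75 in L-RUN. The others past the cut-off were Slc6a13, Slc6a20a, Slc22a6, Slc47a1, Slc13a3, Aebp1, Igfbp2, Col1a1, Col1a2 and Col3a1, while Islr and Dcn, the most abundant of the list beside Igf2, were at 0.27 and 0.29. In RUN 5 were higher by the cut-off (median 0.18), in CE 3 (median 0.08), and in H-RUN 0 were higher and 2 lower (Dcn at -0.52 and Ogn at -0.68, median -0.01). The shares of all expressed genes past it were 1.31% in RUN, 0.598% in CE and 0.827% in H-RUN. The summed level of the markers, on the rlog scale, was 12.36 in LD, 12.50 in CE, 12.55 in RUN, 12.25 in H-RUN and 12.85 in L-RUN, the same order of libraries as that of Ptgds. These markers were chosen with earlier results of these data known, so the counts and the order describe the list. RUN holds the RNA of both runner pools, so its place between them is not a separate observation. The part of leptomeningeal tissue in the Ptgds values was not tested.

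For other cells known to make Ptgds, the summed marker levels had other orders of libraries. The 12 oligodendrocyte markers were all expressed, and 11 of 12 lay below LD in L-RUN with a median of -0.16. Among them Mbp was at -0.23 and Cnp at -0.12. Their summed level ranged from 14.96 in L-RUN to 15.17 in LD, so the library with the highest Ptgds was their lowest. Of the 11 choroid plexus markers, 4 were expressed (Ttr, Kl, Prlr and Sostdc1). Otx2, Folr1, Clic6 and Kcnj13 were not. Their values were 2.30, 2.42, 3.72 and 3.55 in LD and 2.29, 2.42, 3.72 and 3.64 in L-RUN. The rlog shrinks genes this low, so a change of them would be understated. The summed level of the 11 lay between 9.84 and 10.03 and was highest in CE, where Ttr was 0.62 above LD. In L-RUN the most abundant genes of this list, Kl, Ttr and Prlr, differed from LD by -0.07, 0.13 and 0.11. The part of these cells in the Ptgds values was not tested either.

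Microglia make Hpgds and Ptgs1. The 12 markers of microglia and macrophages had medians between -0.09 and -0.05 in the 4 comparisons with LD. Against 0.598% to 3.13% of all expressed genes, 0 of 12 passed the cut-off. Csf1r and P2ry12, which are among the most abundant, were at -0.25 and -0.12 in L-RUN. In that library 4 of the 12 markers lay above LD, the highest by 0.22. Their summed level was 13.30 in LD and between 13.16 and 13.18 in the other 4 libraries. Activity-induced genes had no common direction in H-RUN. In H-RUN, 2 of their 16 expressed genes were higher than LD by the cut-off (Bdnf at 0.36 and Nptx2 at 0.42), against 0.827% of all expressed genes. The list median was -0.03. Homer1 and Egr1, the most abundant of the list beside Bdnf, differed from LD there by -0.13 and -0.10. Between H-RUN and L-RUN all 16 were higher in H-RUN, as Ptgs2 was, with a median of 0.11 and 1 past the cut-off (Nr4a3 at 0.33). Over all expressed genes the median there was 0.003, and 1.54% passed. Other lists were higher in H-RUN as well, with 12 of 12 oligodendrocyte markers (median 0.16), 7 of 8 pyramidal cell markers (0.19), 7 of 9 granule cell markers (0.13) and 7 of 8 astrocyte markers (0.08), so this direction was not particular to activity-induced genes. The medians of the other lists in L-RUN were -0.03 for endothelium, -0.02 for mural cells, -0.11 for astrocytes, -0.12 for granule cells and -0.24 for CA1 and CA3 pyramidal cells. The summed level of the mural markers was highest in L-RUN, as was that of the leptomeningeal markers. It was 11.80 in L-RUN, 11.72 in RUN, 11.68 in CE and 11.64 in both H-RUN and LD. Of the pyramidal markers, 4 of 8 were lower by the cut-off (Wfs1, Fibcd1, Spink8 and Pou3f1), where 3.13% of all expressed genes passed it. Past it in L-RUN were also Flt1 of endothelium (-0.43), Vtn of mural cells, Slc1a2 and Slc1a3 of astrocytes, and Prox1 (-0.41) and C1ql2 (0.37) of granule cells. The most abundant genes of these lists were Slc2a1, Slco1a4 and Itm2a (0.02, -0.09 and 0.03), Vtn, Pdgfrb and Rgs5 (0.43, -0.02 and -0.20), Slc1a2, Aldoc and Slc1a3 (-0.36, 0.02 and -0.30), Fam163b, Stxbp6 and Calb1 (-0.08, -0.12 and 0.04), and Grik4, Wfs1 and Ociad2 (-0.18, -0.33 and -0.13).

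**Figure D4:**
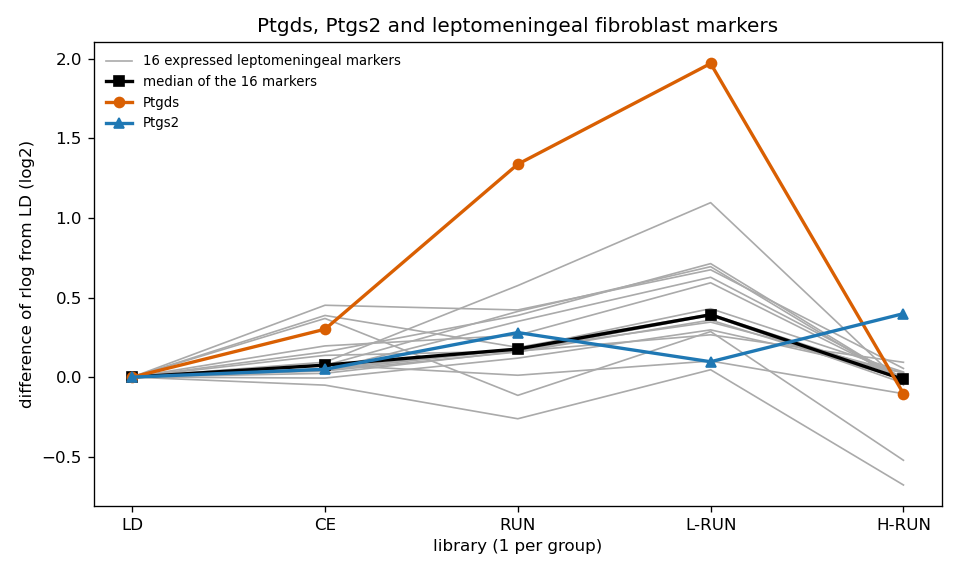
Differences of the rlog value from LD (log2 scale, vertical axis) in the 5 libraries (horizontal axis) for Ptgds, Ptgs2, each of the 16 expressed leptomeningeal markers and their median; lines only join the values of 1 gene. Ptgds reaches 1.97 and the marker median 0.39 in L-RUN, while Ptgs2 is highest in H-RUN at 0.40.

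Genes with the pattern most like each of the 2 members were sought over all 5 libraries, among 693 other expressed genes with a range of at least 0.3, by the Euclidean distance between Z-scores. Nearest to Ptgds were Slc6a13 (distance 0.163), Apod (0.165), Fmod (0.243), Mgp (0.247) and Slc22a6 (0.289), where the median distance was 3.67. Of these, Slc6a13 and Slc22a6 are on the leptomeningeal list. Their differences in L-RUN, from 0.63 for Slc22a6 to 1.01 for Fmod, were all smaller than the 1.97 of Ptgds. Nearest to Ptgs2 were Fxyd7 (0.146), Pappa (0.314), Blnk (0.371), Sgk1 (0.555) and Nptx2 (0.576), against a median of 3.08. Their differences in H-RUN ran from 0.35 for Fxyd7 to 0.55 for Sgk1. These distances rest on 5 libraries, 3 of which share mice, and are a description.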

How the data were processed

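DG RNA was sequenced as 5 libraries of pooled RNA, 1 per group, with groups taken from the labels. Per the labels and methods, the authors mapped reads to mm10 with TopHat2 2.0.10, counted on RefSeq genes by HTSeq and made regularized log values in DESeq2 1.10.1, all libraries at once. The deposited values are log2, and 4588 genes are at 0 in all 5. Counts are not used here, so depth is unknown and the shrinkage of low genes stays in the values.

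The technical SD is the scaled median absolute deviation of RUN from its 2 pools averaged without logs, by decile of expression, taking the residual variance as 1.5 times and that of a difference as 2 times that of a library. Positions and lengths came from GENCODE M21 (GRCm38; 93.7% of expressed genes) and promoters from RefSeq (GRCm38.p6), all 10 members matching by symbol. Members, lists, markers and motifs were chosen with earlier results of these data known. Named genes were the members, called pathway genes, the largest difference per pathway list, the 3 most abundant markers per list, leptomeningeal markers called in L-RUN and the 5 nearest patterns. Genes outside this rule were named after their values were seen. Some markers that meet the rule are not reported here. Alternatives were a cut-off of 0.4, median centring, quantile normalization, a minimum mean of 7 or none, LD and CE together as baseline, and a lowess correction for transcript length (fraction 0.3). Scripts were tested on simulated data. Python 3.11.15, numpy 2.4.6, pandas 2.3.3, statsmodels 0.14.6 and matplotlib 3.10.9 were used.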

Additional observations from a re-analysis of the deposited data

Results flagged for a closer look

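Ptgds differed from LD in opposite directions in the 2 pools of runners, by 1.97 in L-RUN and by -0.10 in H-RUN, so that H-RUN minus L-RUN was -2.07. Ptges3 did so as well, at 0.08 and -0.07, with H-RUN minus L-RUN at -0.15. Against the average of LD and CE, however, Ptges3 was at 0.15 in L-RUN and 0.00074 in H-RUN, so its opposite directions rest on the LD library. Each of these differences from LD is larger than the technical SD of genes at its level of expression, and each rests on 1 library per pool. For Ptgds the residual of RUN against its 2 pools, 0.060, was itself above that SD. The difference between the pools was not tested, since no group has a replicate.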

How the results depend on the processing

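A cut-off of 0.4 left 0 members called in CE and in H-RUN and 1 (Ptgds) between H-RUN and L-RUN, and it left 1 pathway gene (Cd74) in CE and 1 in H-RUN. Removing the trend with transcript length gave 0 members in CE, 2 in RUN (Ptgs2, at 0.31, beside Ptgds), 1 between H-RUN and L-RUN, and 1 pathway gene (Cd74) in CE. Centring on the median left 1 member between H-RUN and L-RUN. A minimum mean of 7 left 1 pathway gene in CE (Mif) and 1 in H-RUN (Daglb), and LD and CE averaged as baseline left 0 in H-RUN. Ptgds in L-RUN stayed between 1.82 and 2.02, in RUN between 1.19 and 1.36 and between H-RUN and L-RUN from -2.11 to -2.02. Ptgs2 in H-RUN stayed between 0.37 and 0.42. Of 162 differences of single members recomputed, 140 moved by less than 1 technical SD, and no called difference turned its direction. No replicate could be left out, and without counts the rlog values set what low genes such as Ptger3 can show.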
